A study of Mus musculus with 11 samples.

Results

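The release of stored fat was followed through 10 genes of lipolysis in epididymal white adipose tissue (eWAT) of obese mice. The genes were listed by function and looked up by symbol in the deposited tables, and 10 of 10 were found among the 15453 genes measured. They are the triacylglycerol lipases Pnpla2, Pnpla3 and Lipe, the monoacylglycerol lipases Mgll and Abhd6, the Pnpla2 regulators Abhd5 and G0s2, the protein kinase A subunit Prkar2b, and Aqp7 and Gk, which handle glycerol. Gk is listed in the tables under its older symbol Gyk.

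The tissue came from 6 wildtype (WT) mice and 5 mice that inherited an inactivated Mest allele from the father (pKO), all C57BL/6 (C57BL/6J in the study's methods), 16 weeks old and fed a high fat diet from 8 weeks of age. Mest is an imprinted gene that is read from the paternal allele, and the pKO allele lacks exon 3, removed through Ella-cre in every cell of the body and not in adipocytes alone. Gene expression was measured by serial analysis of gene expression (SAGE), which counts 1 short tag for each transcript, so that levels of different genes can be compared without dividing by transcript length. Values are normalized tags, meaning tag counts that the authors scaled for each library's depth. The mice were drawn from a larger cohort, and the study reports a higher ratio of fat to lean mass in these WT mice than in these pKO mice. An effect of genotype on expression and an effect of adiposity therefore cannot be told apart here.

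In fat cells, lipolysis breaks down triacylglycerol in steps. Pnpla2, also called adipose triglyceride lipase, removes the first fatty acid, Lipe, known as hormone-sensitive lipase, acts mainly on the diacylglycerol that remains, and Mgll splits the monoacylglycerol into glycerol and a last fatty acid. Abhd5 activates Pnpla2 and G0s2 inhibits it, while catecholamines acting through beta-adrenergic receptors and protein kinase A switch the pathway on.

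Libraries of WT mice held 9659740 to 14825727 tags, and those of pKO mice 11320342 to 14626803. Mest, the targeted gene, ranged from 20756 to 27897 normalized tags in WT mice and from 793 to 2275 in pKO mice, so that every library matched its label. Each of the 8 adipocyte markers was detected in every mouse, with summed levels of 667601 to 1073884 normalized tags among WT mice and 717684 to 1094962 among pKO mice. The 2 epididymis markers measured, of 7 listed, summed to no more than 43.8.

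Because the tag is what was counted, the tags of the members on which the results turn are shown, as read from the reference transcripts of GENCODE M21 on GRCm38. Each is the 27 bases that begin at the NlaIII site nearest to the 3′ end of the gene's principal transcript, 5′ to 3′ on the strand of the gene, with the CATG of the site in capitals.
Pnpla2: CATGctgtggaatgaggacataggacc
G0s2: CATGctgtttcaaggtgccaccgaatc
Lipe: CATGgcttcctgagcctggcggcactg
Mgll: CATGtgagcatcgggggagtgctctgc
Pnpla3: CATGgctccctgatatccaggatgata
Gk: CATGcacagaccatcaaatctttttta
The Pnpla2 tag lies at chr7:141459781-141459807 on the forward strand, in the 3′ untranslated region of exon 8 of 8. That of G0s2 lies at chr1:193272377-193272403 on the reverse strand, in the 3′ untranslated region of exon 2 of 2. The Lipe tag, chr7:25380045-25380071 on the reverse strand, falls in coding sequence of exon 10 of 10. Mgll has its tag in the 3′ untranslated region of exon 8 of 8, at chr6:88828117-88828143 on the forward strand. The tags of Pnpla3 (coding, exon 8 of 8, chr15:84185985-84186011, forward strand) and Gk (3′ untranslated, exon 20 of 20, chrX:85701975-85702001, reverse strand) complete the set. Of the 11 tags of the members and Mest, 1 is shared with another gene: the Pnpla3 tag also occurs in Gm49513, so that tags of these genes cannot be told apart. The 4 coding transcripts of Pnpla2 end in 4 different tags. Those of Lipe, Mgll and Mest end in 3 different tags each, and those of Abhd5, Abhd6 and Prkar2b in 2 each. The tag of another Abhd6 transcript also occurs in Gm1833. How the authors assigned tags to transcripts is not given in the sources used here.

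**Figure D1:**
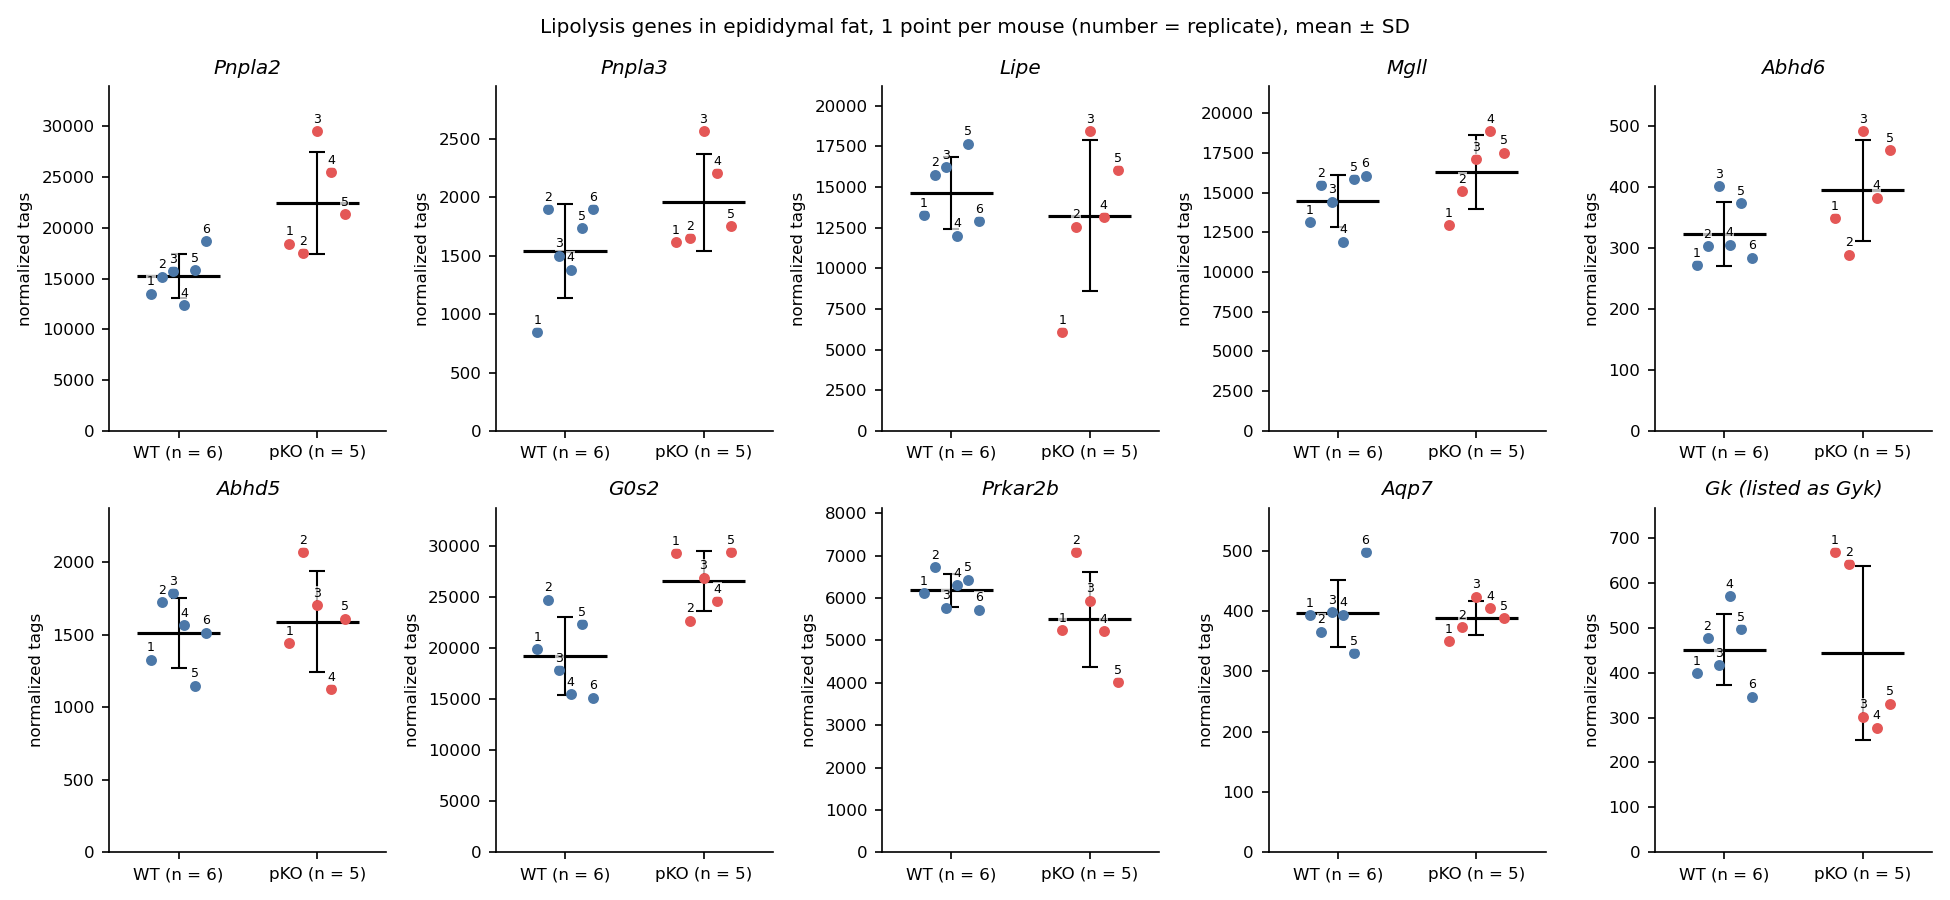
Normalized tags of the 10 lipolysis genes in each mouse, 1 panel per gene with its own vertical axis from 0; points are mice with their replicate number, the bar is the mean and the whisker the SD (WT, n = 6; pKO, n = 5). All 5 pKO mice lie above the WT mean for Pnpla2 and G0s2, with 3 above the highest WT mouse in each, and the pKO points of Gk lie on both sides of the WT range.

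Pnpla2 and G0s2 rose in pKO mice, by 1.48-fold and 1.38-fold between the means, at an unadjusted p of at most 0.05. These were 2 of the 10 genes, against 4.85% of the 9906 genes that averaged 50 or more normalized tags in either genotype, and 0 of the 10 fell, against 5.77% of those genes. All 10 members reached that mean. The members were chosen with earlier results of these data known, so these counts are a description and not evidence of enrichment. No member had an adjusted p of at most 0.1 in limma, a limit that 0.0505% of the same genes met, and adjusted p-values of the members ran from 0.37 to 0.97. The other 8 genes did not pass the test. In no member were the genotypes separated without overlap, against 0.717% of genes with every pKO value above every WT value and 0.717% with every value below. The median log2 difference (pKO minus WT) was 0.11 over the 10 members and 0.0086 over the 9906 genes, and 6 members had a positive and 4 a negative difference. Over all genes, 480 were higher and 572 lower, a split that moved to 330 and 737 when libraries were scaled to their total tags.

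Pnpla2, the lipase of the first step, ranged from 12376 to 18687 normalized tags in WT mice, with a median of 15434. In the 5 pKO mice it was 18441, 17479, 29520, 25440 and 21350. All 5 pKO mice lay above the WT mean and 3 above the highest WT mouse, while the other 2 overlapped the top of the WT range. WT mice averaged 15211 ± 2173 (SD, n = 6), against 22446 ± 5023 (SD, n = 5) for pKO mice. This gave a log2 difference of 0.55 (standard error 0.16, 95% interval 0.20 to 0.89), with an unadjusted p of 0.0048 and an adjusted p of 0.37 in limma and an exact permutation p of 0.0087 (two-sided, over all splits of the mice).

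Pnpla3, the closest relative of Pnpla2 among the members, was an order of magnitude less abundant. It ranged from 844 to 1897 in WT mice (median 1618) and was 1616, 1649, 2567, 2206 and 1754 in pKO mice. The WT mouse with 844 stood below every other mouse, 3 pKO mice lay within the WT range and 2 above it. Its log2 difference of 0.37 (95% interval -0.08 to 0.82) did not pass the test (unadjusted p = 0.098, adjusted p = 0.59, limma). Without the WT mouse with 844, replicate 1, the difference was 0.21 (unadjusted p = 0.23, limma).

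Lipe, the diacylglycerol lipase of the pathway, spread widely among pKO mice. It ranged from 12014 to 17662 normalized tags in WT mice, with a median of 14504. In pKO mice it was 6065, 12548, 18440, 13130 and 16023, so that pKO replicate 1 was the lowest and pKO replicate 3 was the highest of all 11. For Lipe the log2 difference was -0.22 (standard error 0.24, 95% interval -0.74 to 0.29, adjusted p = 0.80, limma). Without pKO replicate 1 it was 0.036, so its sign rested on that mouse.

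Mgll and Abhd6 both act on monoacylglycerol. Mgll ranged from 11912 to 16059 in WT mice (median 14938) and was 12957, 15083, 17094, 18871 and 17510 in pKO mice, 3 of which were above the WT range. Abhd6 was far less abundant, at 271 to 401 in WT mice (median 304) and 349, 289, 491, 382 and 460 in pKO mice, 2 of which were above the WT range. Neither passed the test in limma. The log2 difference of Mgll was 0.17 (95% interval -0.12 to 0.46, adjusted p = 0.72), and that of Abhd6 was 0.28 (95% interval -0.08 to 0.63, adjusted p = 0.62). Abhd6 did pass when pKO replicate 2 was left out, at 0.38 with an unadjusted p of 0.030.

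G0s2, the protein that binds and inhibits Pnpla2, was the most abundant of the 10 genes. It ranged from 15139 to 24757 normalized tags in WT mice, with a median of 18870. The pKO mice had 29277, 22694, 26898, 24590 and 29370. All 5 were above the WT mean and 3 above the highest WT mouse, and the remaining 2 overlapped the upper WT values. Means of 19247 ± 3823 (SD, n = 6) and 26566 ± 2925 (SD, n = 5) were found for WT and pKO, and the log2 difference was 0.48 (standard error 0.15, 95% interval 0.15 to 0.81). In limma the unadjusted p was 0.0078 and the adjusted p 0.37, and the exact permutation p was 0.015. Scaled to the mean log2 level of the 8 adipocyte markers, the log2 difference of G0s2 was 0.32 and its unadjusted p 0.087, past the limit no longer, while Pnpla2 stayed within it at 0.38 and 0.025. That scaling lowered the median over all genes to -0.15.

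Abhd5, the activator of Pnpla2, had a tag count about an order of magnitude below that of G0s2. It ranged from 1149 to 1785 in WT mice (median 1540) and was 1443, 2065, 1704, 1123 and 1610 in pKO mice. The pKO mice fell on both sides of the WT mean and 3 of them within the WT range. For Abhd5 the log2 difference was 0.06 (95% interval -0.29 to 0.41, unadjusted p = 0.72, limma), which leaves room for a change of 1.33-fold upward or down to 0.816 of the WT level.

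Prkar2b encodes RIIβ, a regulatory subunit that holds protein kinase A inactive until cyclic AMP binds. It was the steadiest member among WT mice, at 5723 to 6727 (median 6213), with a coefficient of variation of 6.29%. In pKO mice it was 5242, 7073, 5934, 5220 and 4013, with a coefficient of variation of 20.4%. Values of 3 pKO mice lay below the WT range and that of pKO replicate 2 above it. The log2 difference of -0.19 (95% interval -0.49 to 0.11) did not pass the test (unadjusted p = 0.19, limma), but it did without pKO replicate 2, at -0.29 with an unadjusted p of 0.043. Without pKO replicate 5 it shrank to -0.084 (unadjusted p = 0.50, limma).

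Aqp7, the glycerol channel of fat cells, showed the narrowest spread among pKO mice. It ranged from 330 to 497 in WT mice (median 394) and was 350, 374, 424, 405 and 389 in pKO mice, every value within the WT range. Its log2 difference was -0.02 (95% interval -0.29 to 0.25, unadjusted p = 0.86, limma).

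Gk, the kinase that turns glycerol into glycerol 3-phosphate, had nearly equal means in the genotypes, 451 ± 79.5 (SD, n = 6) and 444 ± 193 (SD, n = 5) for WT and pKO. The WT mice ranged from 347 to 570 (median 447). The pKO mice had 667, 641, 302, 277 and 331. None of these 5 values lay within the WT range, since 2 were above it and 3 below. The coefficient of variation was 17.6% among WT mice and 43.6% among pKO mice, and this contrast in spread was not tested. For the means, the log2 difference was -0.11 (95% interval -0.63 to 0.41, unadjusted p = 0.65, limma). At least 292 Gk tags were recovered in each library.

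**Figure D2:**
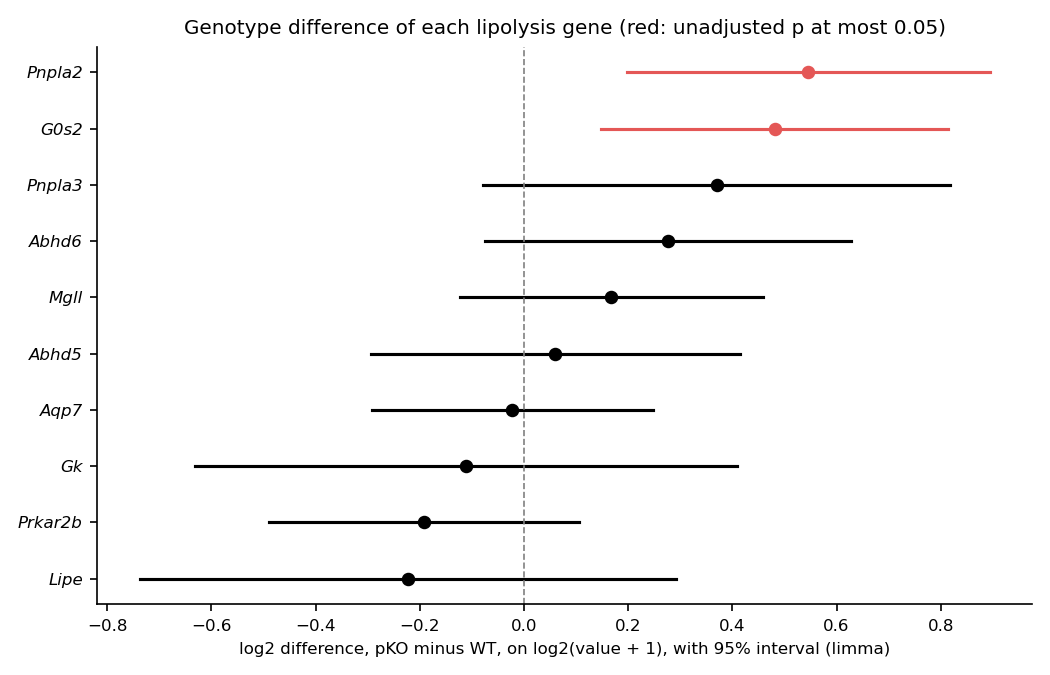
Log2 difference between genotypes (pKO minus WT) of each lipolysis gene on the horizontal axis, as points with 95% intervals from limma, ordered by size; the dashed line marks no difference. The intervals of Pnpla2 (0.20 to 0.89) and G0s2 (0.15 to 0.81) lie above 0 and those of the other 8 genes include it.

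The abundance order of the members was the next question. By WT means it ran G0s2, Pnpla2, Lipe, Mgll, Prkar2b, Pnpla3, Abhd5, Gk, Aqp7 and Abhd6. G0s2 ranked 54 by mean level among the 15453 genes, Pnpla2 70, Mgll 88 and Lipe 101, whereas Gk ranked 3751, Aqp7 4142 and Abhd6 4405. Neighbours in the order were compared within each of the 6 WT mice. The order was taken from the same mice, and the p-values are not adjusted. Mgll exceeded Prkar2b, Prkar2b exceeded Pnpla3 and Abhd5 exceeded Gk in 6 of 6 mice (exact sign-flip test, p = 0.031, the smallest that 6 mice allow). The remaining neighbours did not pass this test, with exact p-values of 0.094 for G0s2 over Pnpla2, 0.84 for Pnpla2 over Lipe, 0.78 for Lipe over Mgll, 1 for Pnpla3 over Abhd5, 0.28 for Gk over Aqp7 and 0.13 for Aqp7 over Abhd6. These 3 steps set the lipases of the main pathway and G0s2 above Prkar2b, Prkar2b above Pnpla3 and Abhd5, and those above Gk, Aqp7 and Abhd6. In pKO mice each of the 3 steps had the same direction in 5 of 5 mice.

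Ratios between members within a mouse do not depend on how libraries are scaled, and 4 were tested. The ratio of Lipe to Pnpla2 fell in pKO mice. In WT mice it was 0.981, 1.04, 1.03, 0.971, 1.12 and 0.689, with a mean of 0.972 ± 0.148 (SD, n = 6). The pKO mice had 0.329, 0.718, 0.625, 0.516 and 0.750, with a mean of 0.588 ± 0.171 (SD, n = 5). All 5 pKO mice were below the WT mean, and the groups overlapped only because WT replicate 6, at 0.689, lay among the pKO values. On the log2 scale the difference was -0.77 (exact permutation test, two-sided, p = 0.0087, 0.035 adjusted over the 4 ratios). That adjustment covers the 4 ratios and not all genes. Pnpla2, the denominator, was itself higher by 0.55 on the log2 scale (adjusted p = 0.37, limma), so the ratio is not independent of that result. Pnpla2 exceeded Lipe in 5 of 5 pKO mice and in 3 of 6 WT mice. With same-numbered mice subtracted as a replicate block, the difference was -0.86 and the exact sign-flip p was 0.063, the smallest that 5 pairs allow.

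The ratio of the inhibitor G0s2 to Pnpla2 averaged 1.29 ± 0.290 (SD, n = 6) and 1.23 ± 0.285 (SD, n = 5) for WT and pKO, with ranges of 0.810 to 1.63 and 0.911 to 1.59. Its log2 difference was -0.06 (exact permutation p = 0.77), while each of the genes was higher in pKO mice on its own. For the activator Abhd5 the ratio to Pnpla2 averaged 0.101 ± 0.0209 (SD, n = 6) for WT and 0.0747 ± 0.0279 (SD, n = 5) for pKO, a log2 difference of -0.49 (exact permutation p = 0.10, adjusted 0.14). It passed only without pKO replicate 2, at -0.67 with an exact permutation p of 0.024. The ratio of Mgll to Lipe was 0.999 ± 0.130 (SD, n = 6) and 1.36 ± 0.472 (SD, n = 5), with a log2 difference of 0.39 (exact permutation p = 0.061, adjusted 0.12). This last ratio passed without WT replicate 6, at 0.46 with an exact permutation p of 0.032, and without pKO replicate 3, at 0.51 with 0.014.

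**Figure D3:**
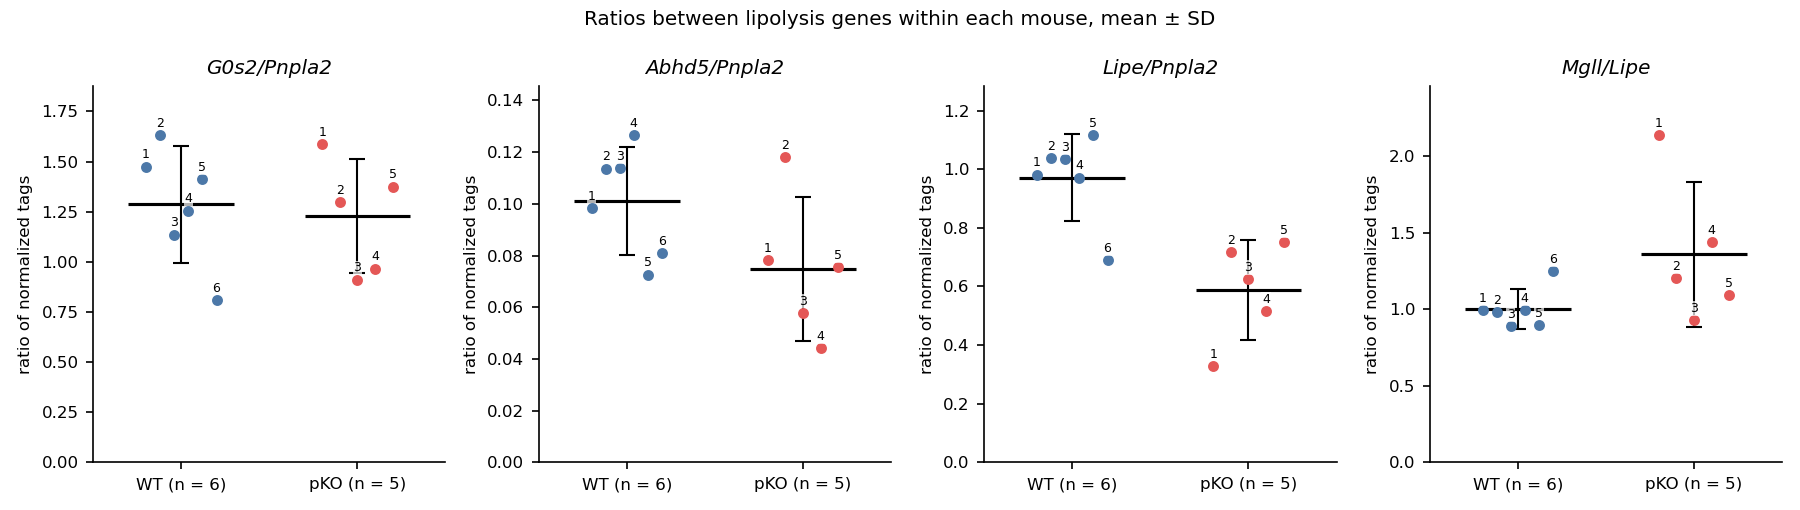
Ratios of normalized tags between lipolysis genes within each mouse, on linear axes from 0; points are mice with their replicate number, bars are means and whiskers SD (WT, n = 6; pKO, n = 5). For Lipe to Pnpla2 the pKO mice sit between 0.329 and 0.750 and 5 of the 6 WT mice between 0.971 and 1.12, with WT replicate 6 at 0.689; the other 3 ratios overlap more.

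Variation among mice of the same genotype was examined in the 6 WT mice, over all 45 pairs of members. Pnpla2 and Mgll varied together, with a Pearson r of 0.90 (exact permutation p = 0.0056) and a Spearman rho of 0.94 (exact permutation p = 0.017). This was the only pair with an exact p of r at most 0.05, and adjusted over the 45 pairs the values were 0.25 and 0.50, so it did not pass the correction. Without the 2 mice farthest from the median of Pnpla2, r was 0.84 over the 4 that remained. Pnpla2 and G0s2, the genes that were higher in pKO mice, had an r of -0.05 in WT mice (exact permutation p = 0.92). Over the 45 pairs, 29 values of r were positive and their median was 0.0915.

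**Figure D4:**
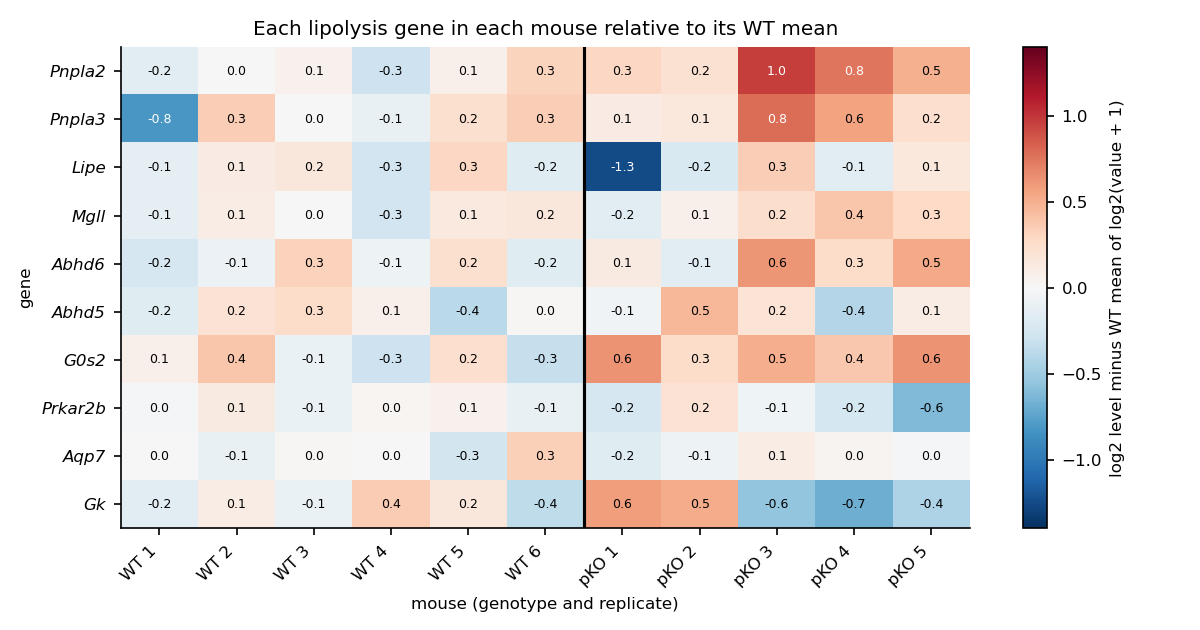
Level of each lipolysis gene (rows) in each mouse (columns) as the difference of its log2(normalized tags + 1) from the WT mean, red for higher and blue for lower; the black line divides WT from pKO mice. Pnpla2 and G0s2 are above 0 in all 5 pKO mice, Lipe is lowest in pKO replicate 1, and Gk is high in pKO replicates 1 and 2 and low in 3, 4 and 5.

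For the 4 most abundant members, the genes with the most similar pattern over the 11 mice were sought among the other 9905 genes, after centring log2 levels within genotype. They are given as a description, and the points share a library and its scaling. Nearest to Pnpla2 were Clcc1 and BC017158 (r = 0.93 each) and Iars2 (0.92). Lipe was nearest to Atp5c1 (0.97), a subunit of ATP synthase, Acadvl (0.96), which oxidizes long-chain fatty acyl-CoA, and Nr1h3 (0.96), a nuclear receptor for oxysterols. Genes close to Mgll included Cd209g (0.96) and Ppp6r1 (0.95), and G0s2 was nearest to Taf3, Xpo5 (0.91 each) and Osgin2 (0.90).

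The wider pathway was followed through 48 further genes, from the receptors that start lipolysis to the proteins of the droplet surface. This list was chosen with earlier results of these data known, and the study had already named Ces1d and Ces1f as higher in pKO mice. Its counts are therefore a description and not evidence of enrichment. Of these, 40 averaged 50 or more normalized tags in either genotype, and 5 of the 40 rose (4.85% of all genes did), 2 fell (5.77% of all genes) and 33 did not pass the unadjusted test. Their median log2 difference was 0.043. The 11 cyclic nucleotide genes (adenylyl cyclases, phosphodiesterases and kinase subunits) and the 8 droplet surface genes (perilipins and Cidec among them) had 0 members past the test in either direction. Of the 11 receptors and G proteins 2 rose and 1 fell, of the 7 other lipid hydrolases 2 rose and 1 fell, and of the 3 genes that handle the products 1 rose.

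Adrb3, the beta-adrenergic receptor typical of rodent fat cells, ranged from 1320 to 3388 normalized tags in WT mice (median 2927) and was 4437, 2847, 5072, 5370 and 3422 in pKO mice. All but pKO replicate 2 exceeded the highest WT mouse. For Adrb3 this was a log2 difference of 0.80 (standard error 0.27, unadjusted p = 0.012, adjusted p = 0.40, limma). Adora1, the adenosine receptor that restrains lipolysis, ranged from 731 to 1012 in WT mice (median 885) and was 550, 741, 364, 953 and 295 in pKO mice, of which 3 lay below every WT mouse. Its log2 difference was -0.72 (unadjusted p = 0.014, adjusted p = 0.42, limma). Gnai1, an inhibitory G protein subunit, had 3112 to 3992 in WT mice (median 3623) and 3515, 5551, 4724, 4000 and 4487 in pKO mice, 4 of them above the WT range. Its log2 difference was 0.30 (unadjusted p = 0.035, limma). It stayed past the limit in 13 of 23 alternative fits and lost its call, among others, at total-count scaling and without any of WT replicates 1, 2 and 3 and pKO replicates 2, 3 and 5.

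Ces1d and Ces1f, carboxylesterases that hydrolyse neutral lipid, had the smallest p-values of the pathway list. Ces1d ranged from 3616 to 5441 in WT mice (median 4243) and was 15473, 5476, 9374, 11091 and 5917 in pKO mice. It was the only pathway gene whose genotypes did not overlap. Of the 9906 genes that averaged 50 or more, 0.717% had every pKO value above every WT value. Ces1d differed by 1.03 on the log2 scale (standard error 0.24, unadjusted p = 7.6e-04, adjusted p = 0.27, limma). Ces1f ranged from 273 to 810 in WT mice (median 430) and was 1425, 869, 1074, 837 and 786 in pKO mice, where only pKO replicate 5 fell within the WT range. Its log2 difference was 1.18 (unadjusted p = 5.2e-04, adjusted p = 0.24, limma). In DESeq2 on the recovered tags the adjusted p was 0.0056 for Ces1d and 0.021 for Ces1f, both within the adjusted limit. The Ces1 genes form a family of similar sequences. Ces1d and Ces1f have 1 coding transcript each in GENCODE M21, and the 27-base tag of neither occurs as the tag of another gene. Near matches and other NlaIII sites were not searched, and whether tags of related genes were counted here was not tested.

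Lipa, the acid lipase of lysosomes, was the hydrolase that fell. It ranged from 1500 to 2155 in WT mice (median 1984) and was 1322, 2097, 774, 857 and 1310 in pKO mice, with 4 below every WT mouse and pKO replicate 2 near the top of the WT range. Its log2 difference was -0.66 (unadjusted p = 0.010, adjusted p = 0.39, limma). Pck1, which makes the glycerol backbone for returning fatty acids to triacylglycerol, ranged from 9312 to 18715 in WT mice (median 13558). In pKO mice it was 36261, 8404, 41343, 26793 and 23979, so that 4 lay above every WT mouse and pKO replicate 2 below all of them. For Pck1 the log2 difference was 0.81 (unadjusted p = 0.031, limma), with an exact permutation p of 0.076, and it lost its call without any of WT replicate 1 (0.70, p = 0.069) and pKO replicates 1 (0.66, p = 0.084), 3 (0.61, p = 0.093) and 4 (0.77, p = 0.059). Without pKO replicate 2 it was 1.19, with an unadjusted p of 8.4e-05 and an adjusted p of 0.048 in limma, within the adjusted limit.

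**Figure D5:**
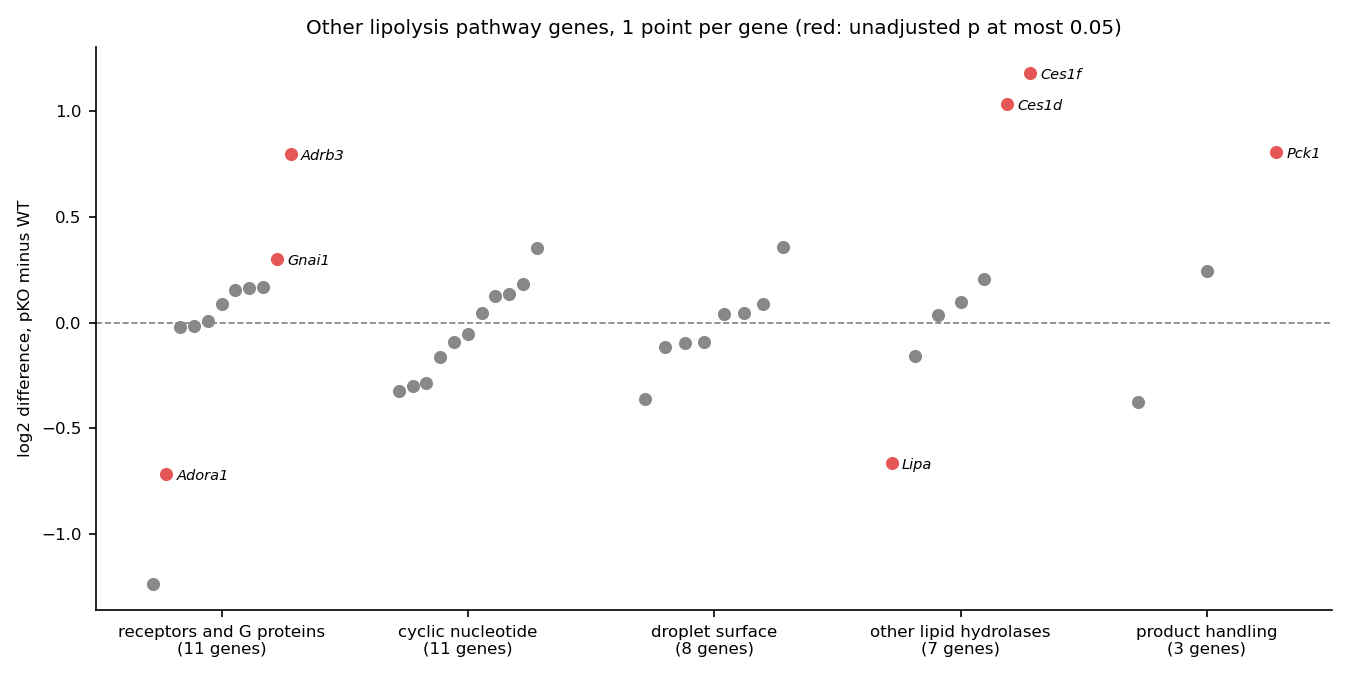
Log2 difference between genotypes (pKO minus WT) of the 40 further pathway genes that averaged 50 or more normalized tags in either genotype, 1 point per gene, grouped by role; red points have an unadjusted p of at most 0.05 in limma. Ces1f (1.18) and Ces1d (1.03) are highest, no cyclic nucleotide or droplet surface gene is red, and the lowest point, at -1.24, is Gnas, which did not pass the test.

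The tissue is a mixture of cells, and in bulk RNA fewer cells of a type and less RNA per cell cannot be told apart. Of the 8 adipocyte markers 1 rose (Slc2a4, log2 difference 0.49) and 0 fell, with a mean log2 difference of 0.16. Among them Lep alone had a negative difference (-0.49, unadjusted p = 0.069, limma). Of 11 macrophage markers, 10 of which averaged 50 or more, 4 fell (Cd14, Itgam, Itgax and Ctss; 5.77% of all genes fell), with summed levels of 8638 to 15300 normalized tags among WT mice and 7975 to 10674 among pKO mice. Over the 11 macrophage markers the mean log2 difference was -0.38, and Cd163 alone had a positive difference (0.23). Of 6 mesothelial markers, 5 of which averaged 50 or more, 3 rose (Msln, Upk1b and Krt19; 4.85% of all genes rose), with summed levels of 1158 to 1589 among WT mice and 1387 to 2683 among pKO mice. Of 6 endothelial markers 1 rose (Kdr, log2 difference 0.44), as did 1 of 6 stromal markers (Dcn, 0.37) and the red cell marker Hba-a1 (0.78), and 0 of these fell. The mean log2 difference was 0.041 over the endothelial list and -0.049 over the stromal list, and both lists held markers of either sign. The part of these cell types in the differences of Pnpla2 and G0s2 was not tested beyond the scaling to adipocyte markers given above.

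For Pnpla2 and G0s2, the 2 members past the unadjusted limit, the start of the promoter is shown, as given by RefSeq on GRCm38.p6. Each line holds the last 80 bases before a transcription start, on the strand of the gene, and capitals mark the GC box GGGCGG, read on either strand.
Pnpla2: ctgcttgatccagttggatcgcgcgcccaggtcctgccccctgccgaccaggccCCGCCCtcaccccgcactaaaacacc
G0s2: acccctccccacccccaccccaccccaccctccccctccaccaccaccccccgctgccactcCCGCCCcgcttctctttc
They lie at chr7:141455108-141455187 (forward) and chr1:193273189-193273268 (reverse). In GENCODE M21 the G0s2 gene begins at chr1:193273217, within the stretch shown, so part of that stretch lies inside the gene in that annotation. In the 250 bases before the start, a GC box occurred in 9 of the 15 promoter entries of the 10 members and in 32.7% of 32851 promoters, the nuclear receptor motif AGGTCA in 3 of 15 and 14.0%, and the E-box CACGTG in 4 of 15 and 6.02%. The cyclic AMP response element TGACGTCA was found in 1 entry, that of Pnpla3, and in 1.55% of all promoters. The CCAAT box (CCAAT) was in 2 of 15 and 33.9%, the TATA box TATAAA in 0 of 15 and 12.4%, the C/EBP motif TTGCGCAA in 0 of 15 and 0.164%, and the FoxO motif GTAAACA in 2 of 15 and 3.17%. Each is a match of letters and not a measured site. Some genes have more than 1 entry, so entries are not independent. AGGTCA was found for Abhd5 and Aqp7 alone, and for Aqp7 in overlapping entries.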

How the data were processed

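Per the labels and the study's methods, RNA from eWAT was made into SAGE libraries by NlaIII and EcoP15I digestion and sequenced on a SOLiD system, and tags were aligned with a modified vendor program. The submitters' processing notes also name edgeR 3.2.3 and mm10. The deposited values are a normalized tag signal that the authors had divided by a size factor of each library. Each value was a whole multiple of the library's 1-tag step (0.836 to 1.19, tolerance 0.01), so whole tags were recovered. No 2 libraries agreed within sampling noise (chi-square per degree of freedom at least 17.7).

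All 15453 genes were tested with limma 3.58.1 in R 4.3.3 (trend, not robust) on log2(value + 1), which understates changes of low genes, with Benjamini-Hochberg adjustment. The thresholds were an unadjusted p of 0.05 or an adjusted p of 0.1, for genes averaging 50 or more normalized tags in either genotype. Differences are pKO minus WT. Single values had exact permutation tests over all splits of the mice (smallest p 0.0022), from Python 3.11.15 and scipy 1.17.1. Genes named were the members, Mest, pathway genes past the unadjusted threshold (at most 5 per direction) and the 3 genes most like each of 4 members, of which 1 is not reported here. Cell type markers, and Gnas, were named after their values were seen. The members and lists were chosen with earlier results of these data known. Count tests on the recovered tags (edgeR 4.0.16, DESeq2 1.42.0, limma-voom) were alternatives, as were other scalings, pseudocounts (0.5, 10), filters, the replicate block and leaving out each mouse. The fits were tested on simulated data. Replicate numbers came from the sample titles and nothing says that they pair mice. Symbols were matched to RefSeq synonyms where absent, as for Gk, and tags to GENCODE M21 transcripts. Counting error was small at these depths, and no batch is given in the labels.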

Additional observations from a re-analysis of the deposited data

Results flagged for a closer look

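Among 28 groups of values (10 genes and 4 ratios in each genotype), 2 held a mouse that stood far from the others by Dixon's 95% limit, where chance would give 1.4. Both are ratios with Lipe in WT replicate 6. Lipe itself, at 12883 normalized tags, lay within the range of the other WT mice there. Pnpla2 (18687) and Mgll (16059) were at their highest WT values in that mouse. The ratio of Lipe to Pnpla2 was 0.689 in that mouse and 0.971 to 1.12 in the other 5 WT mice. The ratio of Mgll to Lipe was 1.25 there and 0.889 to 0.992 in the others. These ratios share Lipe and are not independent.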

How the results depend on the processing

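Over 23 alternatives for each of the 10 members (230 values), 219 kept their direction and side of the unadjusted limit. Pnpla2 stayed past it in 23 of 23 (log2 difference 0.38 to 0.63, adjusted p 0.091 to 0.62) and G0s2 in 22 of 23 (0.32 to 0.56, adjusted p 0.17 to 0.63). The sign turned for Lipe without pKO replicate 1 (0.036), for Abhd5 without WT replicate 5 (-0.016), without pKO replicate 2 (-0.041) and at adipocyte-marker scaling (-0.10), for Aqp7 with the replicate block (0.045), without WT replicate 6 (0.045) and without pKO replicate 1 (0.014), and for Gk without pKO replicate 4 (0.031). Leaving out each mouse gave -0.37 to 0.036 for Lipe, -0.041 to 0.18 for Abhd5, -0.073 to 0.045 for Aqp7, -0.29 to 0.031 for Gk, 0.21 to 0.44 for Pnpla3 and -0.29 to -0.084 for Prkar2b. The sign of G0s2 to Pnpla2 turned without WT replicate 2 (0.012) and without pKO replicates 3 (0.035) and 4 (0.014), none past the limit. The causes were not tested.

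Leaving out each mouse gave 2 to 3 members higher and 0 to 1 lower (Prkar2b, without pKO replicate 2), 3 to 6 pathway genes higher and 2 to 4 lower, and log2 differences of -0.19 to 0.035 for G0s2 to Pnpla2, -0.67 to -0.31 for Abhd5 to Pnpla2, -0.87 to -0.57 for Lipe to Pnpla2 and 0.21 to 0.51 for Mgll to Lipe. The pathway counts moved to 4 lower without pKO replicates 2 or 5 and to 3 higher without WT replicate 1 or pKO replicate 3. Scaling to adipocyte markers, chosen after seeing the data, left 1 member higher, and gave 6 pathway genes lower and, over all genes, 80 higher and 1177 lower. Plin1, Cidec and Fabp4 are in both the adipocyte marker list and the pathway list, so the pathway counts at that scaling are not independent of it. DESeq2 called 1 member at an adjusted p of at most 0.1 (Pnpla2, adjusted p = 0.091), and Ces1d and Ces1f besides. Without pKO replicate 2, limma put Pck1, Ces1d and Lipa within the adjusted limit (adjusted p 0.048, 0.061 and 0.085), and without WT replicate 5 Ces1f (0.060).

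Over all genes, an adjusted p of at most 0.1 was met by 1 gene higher and 4 lower, by 58 and 63 in DESeq2, by 1 and 4 in edgeR's quasi-likelihood test on the recovered tags (515 higher and 480 lower at an unadjusted p of at most 0.05), by 0 and 1 with the replicate block, by 8 lower with a minimum of 10 tags before the fit, by 0 higher at adipocyte-marker scaling, and by 1 to 26 higher and 2 to 65 lower when each mouse was left out, the most without pKO replicate 2. Deviations of same-numbered mice had a mean correlation of -0.024 (range -0.092 to 0.14), against 0.0046 for different numbers. No test was made of this, and 5 pairs cannot settle whether the numbers pair the mice. With the replicate block Pnpla2 was at 0.61 and G0s2 at 0.42, both still past the unadjusted limit, and Lipe to Pnpla2 was at -0.86, where the exact sign-flip test of 5 pairs cannot go below p = 0.063. The WT relations left too few mice for a test once 2 were removed.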

Other observations

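Gnas, which encodes the G protein subunit that links beta-adrenergic receptors to adenylyl cyclase, was singled out after its values were seen. It had 26875, 31905, 25693, 17087, 28273 and 29423 normalized tags in the 6 WT mice. The pKO mice had 23525, 33146, 1622, 6166 and 21003. Replicates 3 and 4 of the pKO group lay below every other mouse, replicate 2 was the highest of all 11, and the genotype difference did not pass the test (log2 difference -1.24, standard error 0.61, unadjusted p = 0.062, limma). The lowest library still held 1594 recovered Gnas tags. In the same pKO mice 3 and 4, Pnpla2 (29520 and 25440) and Pnpla3 (2567 and 2206) had their highest values and Gk was among its lowest (302 and 277). No test was made of this coincidence.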
